A study of Mus musculus with 12 samples.

Results

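The transcripts of 10 matricellular proteins were followed in mouse hearts after pressure overload: *Postn*, *Tnc*, *Spp1*, *Thbs1*, *Thbs2*, *Thbs4*, *Comp*, *Cilp*, *Ctgf* and *Sparc*. They were taken by gene symbol from the joint table of all hearts, where each of the 10 had 1 row among 19308 genes, and all 10 passed the filter on low counts together with 14094 genes in all. RNA was sequenced from 12 hearts of C57BL/6 mice, in a design that crossed genotype (WT or F3-KO) with operation (sham or TAC) and had 3 biological replicates for each of the 4 combinations. F3-KO mice are *Fabp3*-null in every tissue after CRISPR/Cas9 editing and so lack the heart's main fatty acid binding protein, not a matrix gene. In TAC the aortic arch was tied against a needle that was then withdrawn, which leaves a narrowed vessel, and sham mice had the operation without the constriction. Surgery was at 8 weeks of age and whole hearts were frozen 1 week later, so every group had been through the operation and the values are from an early time.

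Matricellular proteins are secreted into the extracellular matrix but do not build its scaffold. They bind collagens, growth factors and integrins, and change how cells attach, migrate and respond to growth factors. Most are scarce in the healthy adult heart, and they are known as products of fibroblasts, macrophages and stressed muscle cells in hearts that heal or are overloaded. Because RNA came from the whole heart, fewer cells of a type and less RNA per cell cannot be told apart in any value given here.

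The libraries held 10424334 to 14372011 estimated counts, and 3 counts, taken as the floor of detection, correspond to 0.209 to 0.288 CPM, the counts scaled to a common library total. *Fabp3*, the targeted gene, was counted over the gene as a whole, so the deleted stretch is not resolved. WT hearts had 2466 ± 367 CPM after sham and 2952 ± 97.4 CPM after TAC, and F3-KO hearts had 1065 ± 24.4 and 1053 ± 78.0 CPM (SD, n = 3 for every mean). *Fabp3* was lower in F3-KO hearts after both operations (log2 fold change -1.21 after sham and -1.49 after TAC, edgeR adjusted p = 0.00784 and 0.00146). Some libraries stood apart from their groups. F3-KO TAC replicate 2 had 220 CPM summed over 7 markers of tendon, cartilage and valve, 157 CPM of it from *Fmod*, against 9.10 to 34.4 CPM in the other 11 hearts. F3-KO TAC replicate 3 was the lowest F3-KO TAC heart for 8 of the 10 genes. WT sham replicate 2 had 3154 CPM of fibroblast markers, against 1524 and 1650 CPM in the other WT sham hearts, and 44929 CPM of cardiomyocyte markers, against 59756 and 59828 CPM. Most of the cardiomyocyte difference lay in *Myh6* (16923 CPM against 30771 and 32970). *Ryr2* (754 CPM against 1697 and 1320), *Actn2* (2040 against 2456 and 3016) and *Pln* (8885 against 9843 and 9070) were also lower in this heart. *Tnnt2* was higher in it (10842 CPM against 9095 and 8323), and *Tnni3* lay between (5485 CPM against 5894 and 5129). Main counts or medians are therefore also given without these hearts.

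The 10 genes spanned a wide range of levels in unstressed hearts. On the scale of CPM per kilobase of the longest protein-coding transcript in GENCODE vM21, which allows genes of different length to be compared, *Sparc* was the most abundant in WT sham hearts at 146 ± 27.0 and *Ctgf* followed at 35.1 ± 5.60 (SD, n = 3). The hearts of these genes did not overlap with each other or with those of the next gene. *Thbs2* at 7.60 ± 3.67 and *Postn* at 5.97 ± 0.866 overlapped. *Thbs1*, *Cilp*, *Thbs4* and *Comp* were low, with means of 0.991, 0.918, 0.803 and 0.588 CPM per kilobase and overlapping hearts. *Spp1* at 0.282 and *Tnc* at 0.111 CPM per kilobase were the lowest, with 2 counts of *Spp1* in each of 2 WT sham hearts, which is under the floor. In F3-KO TAC hearts the highest means were those of *Sparc* at 616 ± 431, *Postn* at 187 ± 185 and *Ctgf* at 102 ± 48.2 CPM per kilobase, with overlapping hearts (133 to 962, 12.7 to 381 and 72.7 to 157).

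The first question was how pressure overload changed these genes. In the fit averaged over both genotypes, all 10 had a higher level after TAC, with log2 fold changes from 0.79 (*Thbs2*) to 3.20 (*Postn*) and a median of 2.17, against a median of 0.0045 over all 14094 genes. None passed edgeR's quasi-likelihood test at an adjusted p under 0.05, a threshold that 0.078% of all genes passed in either direction, and the lowest adjusted p among the 10 was 0.0614 for *Cilp*. At an unadjusted p of at most 0.05 all 10 were higher, compared with 11.3% of all genes. DESeq2, applied to the same 4 groups, called 7 of them (*Postn*, *Tnc*, *Spp1*, *Thbs1*, *Thbs4*, *Cilp* and *Ctgf*) with adjusted p from 4.53e-05 for *Cilp* to 0.0113 for *Ctgf*, did not call *Thbs2* or *Sparc*, and gave no adjusted p for *Comp*. It called 4.21% of the genes to which it gave an adjusted p. Without F3-KO TAC replicate 2 the median was 1.67, 8 genes were higher at an unadjusted p of at most 0.05 (8.46% of all genes) and edgeR called *Cilp* (2.29 ± 0.37, SE, adjusted p = 0.0354) with 0.266% of all genes, while *Thbs4* was at 1.89 in place of 3.01 and *Comp* at 0.27 in place of 1.92. Without F3-KO TAC replicate 3 edgeR called 8 of the 10 (all but *Thbs2* and *Comp*) and 5.92% of all genes, and without WT sham replicate 2 the median was 2.38. The call therefore depends on the tool. The values of single hearts follow by role. Every heart of every gene is drawn in the plot of levels.

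**Figure D1:**
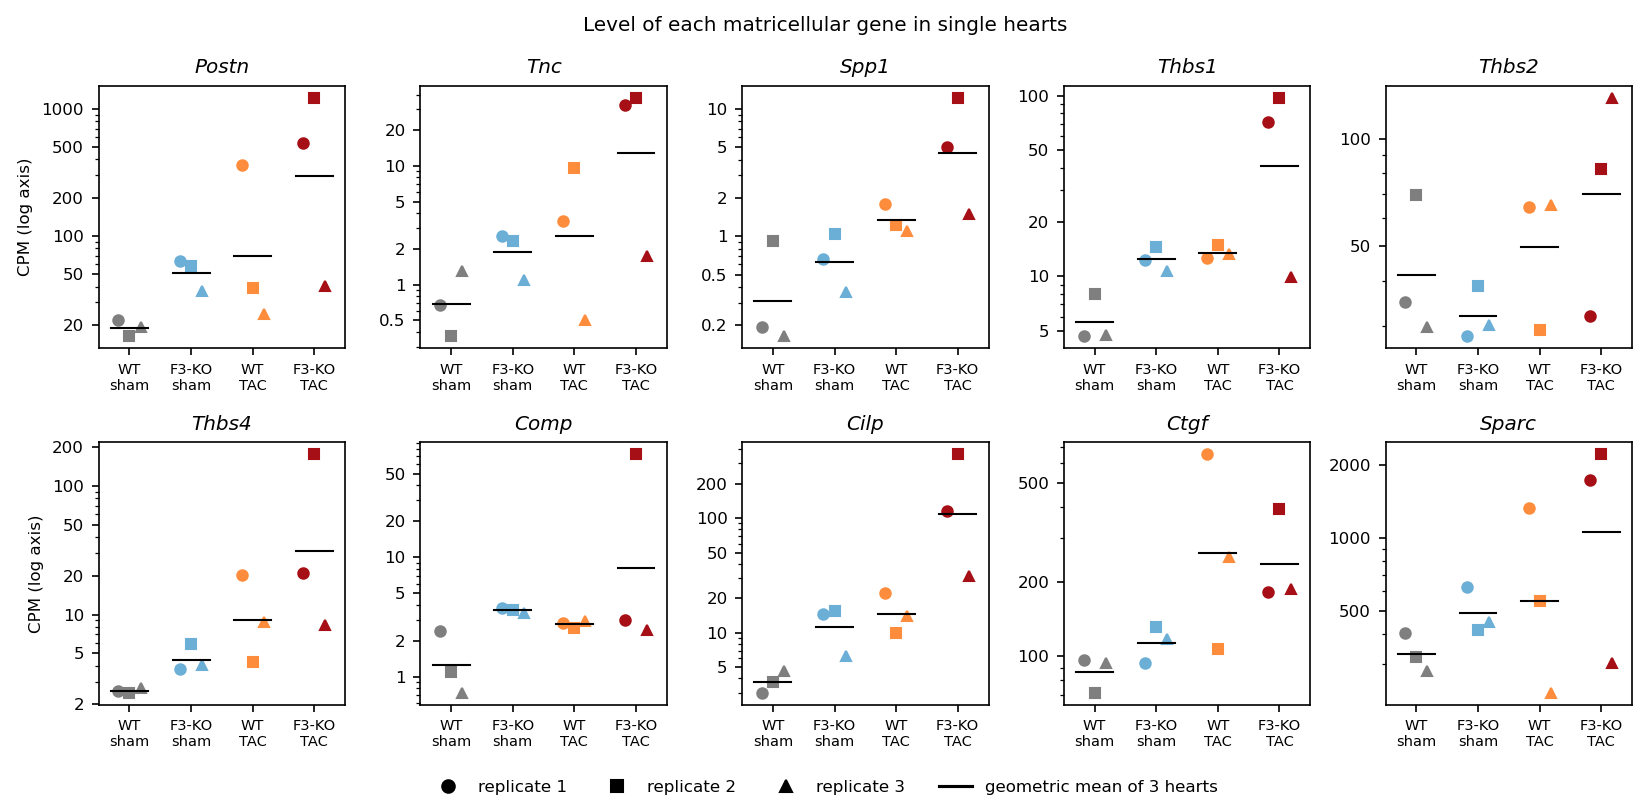
Level of each gene in every heart in CPM (logarithmic axis), by group, with 1 symbol per replicate and a bar at the geometric mean of the 3 hearts. TAC hearts of both genotypes spread widely for most genes, and *Comp* is high in F3-KO TAC replicate 2 alone, at 72.9 CPM.

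*Postn*, *Tnc* and *Cilp* are secreted by cardiac fibroblasts. Periostin (*Postn*) binds collagen and marks activated fibroblasts. Tenascin-C (*Tnc*) loosens cell adhesion and is almost absent from the healthy adult heart. The cartilage intermediate layer protein (*Cilp*) binds TGF-β and dampens its signalling. The bases just before the annotated starts of *Postn* and *Cilp* are shown because both genes were among the 4 with the highest fold changes after TAC in F3-KO hearts, and they can be set beside the thrombospondin and osteopontin promoters given further on. Each run is 250 bases long, is credited to RefSeq on GRCm38.p6, lies on the plus strand and is written 5′ to 3′ with matches to the searched motifs in capitals. *Postn* is at chr3:54360857-54361106, the downstream one of 2 annotated starts, and *Cilp* at chr9:65264930-65265179.
Postn: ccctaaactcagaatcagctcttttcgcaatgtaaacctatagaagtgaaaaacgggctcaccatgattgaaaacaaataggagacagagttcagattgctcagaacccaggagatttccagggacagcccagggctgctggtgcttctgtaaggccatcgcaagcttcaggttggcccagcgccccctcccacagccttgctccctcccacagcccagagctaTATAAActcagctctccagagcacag
Cilp: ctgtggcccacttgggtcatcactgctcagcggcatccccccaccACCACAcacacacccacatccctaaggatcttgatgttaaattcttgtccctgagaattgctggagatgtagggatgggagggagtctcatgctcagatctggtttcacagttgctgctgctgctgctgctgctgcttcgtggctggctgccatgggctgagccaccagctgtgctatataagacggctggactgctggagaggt

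Positions are counted back from the base before the start, which is -1. The capitals in *Postn* mark TATAAA, the core of a TATA box, at -26 to -21. Those in *Cilp* mark the reverse complement of the Runx motif TGTGGT, at -205 to -200. On either strand, the TATA box sequence was present in 12.3% and the Runx motif in 14% of 32544 windows of 250 bases before annotated starts, so neither is rare, and a match is only a match of letters.

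*Postn* was at 21.8, 16.2 and 19.4 CPM in the 3 WT sham hearts and at 361, 39.0 and 24.4 CPM in the 3 WT TAC hearts. All WT TAC hearts were above all WT sham hearts, but replicate 1 carried most of the difference and replicate 3 was barely higher than sham. The fitted log2 fold change was 2.89 ± 1.09 (SE), with an edgeR adjusted p of 0.782. In F3-KO hearts *Postn* was at 63.7, 58.2 and 36.7 CPM after sham and at 537, 1221 and 40.7 CPM after TAC. F3-KO TAC replicate 3 lay among the sham hearts while the other two were far above them, and the log2 fold change was 3.5 ± 1.10 (edgeR adjusted p = 0.184).

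*Tnc* was close to the limit of detection in WT sham hearts, at 0.680, 0.367 and 1.31 CPM. WT TAC hearts had 3.45, 9.60 and 0.500 CPM, so replicate 3 stayed within the sham range and the groups overlapped. In F3-KO hearts it was at 2.58, 2.34 and 1.10 CPM after sham and at 32.7, 37.4 and 1.73 CPM after TAC. Again 2 of 3 F3-KO TAC hearts were far above sham and replicate 3 was not. The log2 fold changes were 2.49 ± 1.13 in WT and 3.57 ± 1.00 in F3-KO hearts (SE, edgeR adjusted p = 0.782 and 0.175).

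*Cilp* was the gene whose hearts separated most regularly. WT sham hearts had 3.01, 3.76 and 4.66 CPM and WT TAC hearts 22.3, 9.86 and 14 CPM. F3-KO sham hearts had 14.6, 15.4 and 6.23 CPM and F3-KO TAC hearts 115, 360 and 31.2 CPM. TAC hearts did not overlap sham hearts in either genotype, and every F3-KO TAC heart was above every WT TAC heart. The log2 fold change after TAC was 2.01 ± 0.75 in WT and 3.81 ± 0.72 in F3-KO hearts (SE, edgeR adjusted p = 0.782 and 0.144), and DESeq2 gave adjusted p of 0.545 and 0.000325.

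**Figure D2:**
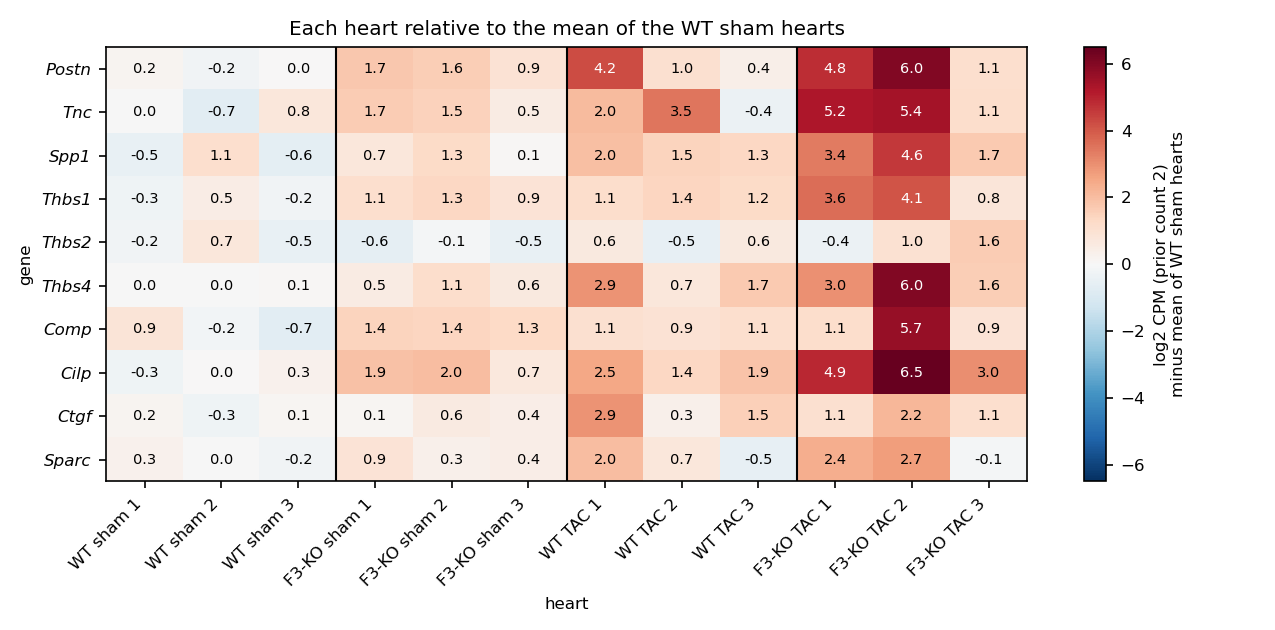
Log2 CPM (prior count 2) of the 10 genes (rows) in each of 12 hearts (columns), minus the mean of the 3 WT sham hearts, with the value in each cell. F3-KO TAC replicate 2 has the deepest column, with a mean of 4.42 over the 10 genes, and F3-KO TAC replicate 3 has a mean of 1.28.

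The thrombospondins *Thbs1*, *Thbs2*, *Thbs4* and *Comp* (thrombospondin 5) are calcium-binding glycoproteins that bind matrix and receptors. Thrombospondin 1 activates latent TGF-β and, with thrombospondin 2, restrains vessel growth. Thrombospondin 4 is made by overloaded heart muscle and other cells, and *Comp* is best known from cartilage and tendon, where it organises collagen fibrils. The *Thbs4* window is shown because it is the one member window with the TEAD motif CATTCC. It lies at chr13:92794819-92795068 on the minus strand of GRCm38.p6.
Thbs4: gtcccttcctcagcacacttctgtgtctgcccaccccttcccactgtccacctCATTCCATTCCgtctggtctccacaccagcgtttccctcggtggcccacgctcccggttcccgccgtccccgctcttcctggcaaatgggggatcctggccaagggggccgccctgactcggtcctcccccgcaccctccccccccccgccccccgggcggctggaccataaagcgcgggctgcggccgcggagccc

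The capitals are 2 copies of CATTCC that share 1 base, at -197 to -192 and at -192 to -187 from the start. CATTCC was present on either strand in 12.6% of all windows and 2 or more times in 1.02%. The *Thbs2* window, by contrast, held no CATTCC and had TTTATA, the reverse complement of TATAAA, at -126 to -121 from its start.

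*Thbs4* had one of the steepest differences. WT sham hearts were tightly grouped at 2.53, 2.47 and 2.70 CPM, and WT TAC hearts were at 20.2, 4.32 and 8.70 CPM, all above sham. F3-KO sham hearts had 3.74, 5.88 and 4.03 CPM and F3-KO TAC hearts 21.2, 176 and 8.25 CPM, again all above sham. The log2 fold changes were 2.11 ± 1.00 in WT and 3.92 ± 0.96 in F3-KO hearts (SE, edgeR adjusted p = 0.782 and 0.175). Without F3-KO TAC replicate 2 the value in F3-KO hearts was 1.68 ± 0.54 (edgeR adjusted p = 0.388).

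*Thbs1* was at 4.66, 7.97 and 4.75 CPM in WT sham hearts and at 12.6, 14.9 and 13.3 CPM in WT TAC hearts. These 2 groups did not overlap and WT TAC hearts were close to each other, unlike for most of the genes. F3-KO sham hearts, at 12.3, 14.5 and 10.7 CPM, already had the level of WT TAC hearts, and F3-KO TAC hearts had 71.6, 97.4 and 9.90 CPM, with replicate 3 below all F3-KO sham hearts. The log2 fold changes after TAC were 1.23 ± 0.60 in WT and 2.25 ± 0.57 in F3-KO hearts (SE, edgeR adjusted p = 0.785 and 0.175).

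*Comp* was low everywhere except in 1 heart. It ranged from 0.736 to 2.43 CPM in WT sham, from 3.39 to 3.74 CPM in F3-KO sham and from 2.55 to 2.90 CPM in WT TAC hearts. F3-KO TAC hearts had 2.96, 72.9 and 2.47 CPM, so replicates 1 and 3 were below every F3-KO sham heart. The fitted log2 fold change in F3-KO hearts was 2.87 ± 1.02, and it was -0.41 ± 0.43 without replicate 2 (SE). In that heart 5 of the 7 markers of tendon, cartilage and valve were above their level in every other heart. The marker values are scaled by library total, by which *Comp* was at 79.5 CPM there. The proteoglycan gene *Fmod* was at 157 CPM against 0.554 to 11.7 CPM elsewhere, *Scx* at 28.6 against 4.27 to 13.0, *Sox9* at 15.3 against 1.5 to 8.74, *Chad* at 3.06 against 0 to 0.867, and *Tnmd* at 2.37 CPM against 0 in 10 hearts and 0.26 in 1. The other two, *Cytl1* (12.7 CPM) and *Acan* (0.974 CPM), were within the range of the other hearts. Whether tissue of this kind contributed to the *Comp* value was not tested.

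*Thbs2* overlapped between all 4 groups. WT sham hearts had 35.1, 69.6 and 29.7 CPM, WT TAC hearts 64.5, 29.2 and 65.3 CPM, F3-KO sham hearts 28.0, 38.7 and 30.2 CPM, and F3-KO TAC hearts 32.0, 82.3 and 130 CPM. F3-KO TAC replicate 3, the lowest F3-KO TAC heart for *Postn*, *Tnc*, *Spp1*, *Thbs1*, *Thbs4*, *Comp*, *Cilp* and *Sparc*, was the highest for *Thbs2*. The log2 fold changes after TAC were 0.24 ± 0.46 in WT and 1.33 ± 0.47 in F3-KO hearts (SE, edgeR adjusted p = 0.950 and 0.202).

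The remaining genes are *Spp1*, *Ctgf* and *Sparc*. Osteopontin (*Spp1*) is an integrin and CD44 ligand made by macrophages and other cells in injured tissue. Connective tissue growth factor (*Ctgf*, also named *Ccn2*) is a TGF-β and YAP target that acts on fibroblasts and vessels. *Sparc* binds collagen and is needed for its processing into mature fibrils. The *Spp1* window is printed because this gene is a textbook Runx target in bone, and it lies at chr5:104434861-104435110 on the plus strand of GRCm38.p6, the upstream one of 2 annotated starts.
Spp1: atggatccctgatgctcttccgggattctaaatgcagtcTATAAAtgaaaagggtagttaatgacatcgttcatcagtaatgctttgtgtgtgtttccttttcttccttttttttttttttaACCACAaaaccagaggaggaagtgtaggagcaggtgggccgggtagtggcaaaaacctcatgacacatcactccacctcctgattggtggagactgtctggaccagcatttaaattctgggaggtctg

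Its capitals mark TATAAA, at -211 to -206 from the start, and the reverse complement of the Runx motif, at -128 to -123. Over the 10 windows of the 7 genes with an entry (*Postn*, *Tnc*, *Spp1*, *Cilp*, *Sparc*, *Thbs4* and *Thbs2*), TATAAA was in 5 windows of 4 genes, TGTGGT in 2 windows and CATTCC in 1. The 2 windows of *Tnc* overlap and hold the same TATAAA site, which is thus counted in both. The AP-1 motif TGANTCA (in 6.73% of all windows), the SMAD motif GTCTAGAC (0.169%) and the CArG box of SRF (1.48%) were in none. No motif searched was common to the genes, which says only that these letters are not in these windows.

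*Spp1* had few counts in sham hearts, at 0.194, 0.917 and 0.164 CPM in WT and 0.665, 1.04 and 0.367 CPM in F3-KO. After TAC it was at 1.80, 1.23 and 1.10 CPM in WT and at 5.01, 12.2 and 1.48 CPM in F3-KO hearts. It was the 1 member whose 6 TAC hearts were all above all 6 sham hearts, a separation that 0.553% of all genes showed. That separation was narrow and depended on the scaling. WT TAC replicate 3 had 11 counts and F3-KO sham replicate 2 had 12, and by library total they were at 1.02 and 1.04 CPM, which overlaps. The log2 fold changes were 1.69 ± 0.82 in WT and 3.16 ± 0.76 in F3-KO hearts (SE, edgeR adjusted p = 0.788 and 0.175).

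*Ctgf* had its highest value in a WT heart. WT sham hearts had 97.1, 71.5 and 93.8 CPM, and WT TAC hearts 654, 108 and 251 CPM. F3-KO sham hearts had 94.5, 131 and 118 CPM, and F3-KO TAC hearts 181, 391 and 186 CPM. TAC hearts were above sham hearts in both genotypes without overlap. The log2 fold change was 1.95 ± 0.52 in WT, with the lowest unadjusted edgeR p of the 10 genes in that comparison (0.00273, adjusted p = 0.760), and 1.14 ± 0.51 in F3-KO hearts (SE, adjusted p = 0.278). The value in WT was 1.04 without WT TAC replicate 1 and that in F3-KO hearts 0.67 without F3-KO TAC replicate 2. In the annotation, 665 of the 2861 exon bases of *Ctgf* (23.2%) overlap *Gm15270* on the opposite strand, and 309 of the 1648 exon bases of *Spp1* overlap *Gm42793* on the same strand, and reads of such partners may not be separable here.

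*Sparc* was abundant in every heart. It was at 404, 323 and 283 CPM in WT sham and at 1327, 546 and 230 CPM in WT TAC hearts, where replicate 3 was below all sham hearts. F3-KO sham hearts had 624, 415 and 448 CPM and F3-KO TAC hearts 1732, 2212 and 305 CPM, with replicate 3 again below sham. The log2 fold changes were 1.06 ± 0.64 and 1.51 ± 0.65 (SE, edgeR adjusted p = 0.817 and 0.265). The value in WT hearts was 0.20 without WT TAC replicate 1.

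Counted by genotype, 0 of the 10 genes passed edgeR's test in WT TAC against WT sham hearts, where 0% of all genes passed. At an unadjusted p of at most 0.05, 4 were higher (*Postn*, *Tnc*, *Cilp* and *Ctgf*), against 3.68% of all genes, and DESeq2 called 0 after adjustment (0.164% of all genes with an adjusted p). 7 of the 10 had every WT TAC heart above every WT sham heart, compared with 4.67% of all genes (*Postn*, *Spp1*, *Thbs1*, *Thbs4*, *Comp*, *Cilp* and *Ctgf*). Without WT TAC replicate 1 the count at the unadjusted p was 1 (1.88% of all genes were higher), and the log2 fold change went from 2.89 to 0.73 for *Postn* and from 2.11 to 1.33 for *Thbs4*. Without WT TAC replicate 2 that of *Tnc* went from 2.49 to 1.34. Without WT sham replicate 2 the count was 2 (5.07% of all genes), *Spp1* went from 1.69 to 2.89 and *Thbs2* from 0.24 to 0.71.

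In F3-KO TAC against F3-KO sham hearts edgeR again called 0 of 10, and 0% of all genes, after adjustment. At an unadjusted p of at most 0.05 all 10 were higher, against 10.6% of all genes, and DESeq2 called 5 after adjustment (*Tnc*, *Spp1*, *Thbs1*, *Thbs4* and *Cilp*), against 3.11% of all genes with an adjusted p. 4 of the 10 (*Spp1*, *Thbs4*, *Cilp* and *Ctgf*) were separated without overlap, against 11.5% of all genes. The outcome rested on single hearts in both directions. Without replicate 3, the heart with the smallest mean difference, edgeR called 8 of the 10 (all but *Thbs2* and *Ctgf*) and 5.43% of all genes. Without replicate 2, the heart with the largest, it called 0 of the 10 and 0.07% of all genes, and the median log2 fold change was 1.68 in place of 3.01.

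The next comparisons asked what loss of *Fabp3* did to these genes, before and after overload. In sham hearts 9 of the 10 were higher in F3-KO than in WT, *Thbs2* being the exception, with a median log2 fold change of 0.97 against -0.0041 over all genes. 6 of the 10 (*Postn*, *Thbs1*, *Thbs4*, *Comp*, *Cilp* and *Sparc*) had all F3-KO sham hearts above all WT sham hearts, compared with 6.78% of all genes. The fitted log2 fold changes of these 6 were 1.47 for *Postn*, 1.11 for *Thbs1*, 0.82 for *Thbs4*, 1.35 for *Comp*, 1.65 for *Cilp* and 0.56 for *Sparc*. None of the 10 passed edgeR's test (0.106% of all genes did) and DESeq2 called 0 (0.66% of all genes with an adjusted p). *Cilp* alone had an unadjusted p of at most 0.05 (0.0495, adjusted p = 0.827), against 2.81% of all genes in the higher direction. In a fit of the 6 sham libraries alone, where 9 of the 10 were tested, edgeR called *Postn* and 0.418% of all genes. Without WT sham replicate 2 the median was 1.10 and 0 of the 10 had an unadjusted p of at most 0.05 (3.13% of all genes were higher).

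**Figure D3:**
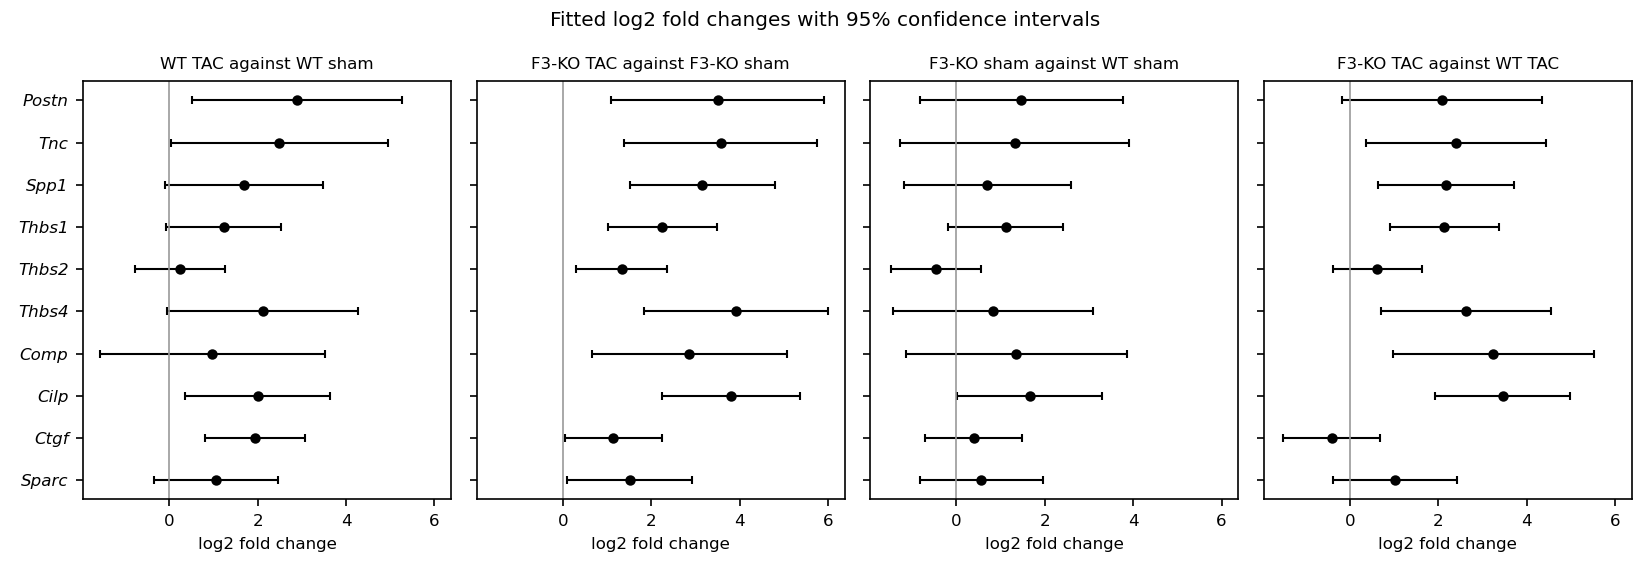
Fitted log2 fold change of each gene (points) with its 95% confidence interval (lines) from edgeR in 4 comparisons, with a line at 0. Intervals are several log2 units wide for most genes, and those of *Postn*, *Thbs2*, *Ctgf* and *Sparc* between F3-KO and WT hearts include 0 after both operations.

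After TAC, 9 of the 10 were higher in F3-KO than in WT hearts and *Ctgf* was the exception. The median log2 fold change was 2.15 against 0.02 over all genes, and it was largest for *Cilp* (3.45 ± 0.70, SE), *Comp* (3.24 ± 1.04) and *Thbs4* (2.63 ± 0.88). None passed edgeR's test, which 0.078% of all genes passed, and the lowest adjusted p was 0.160 for *Cilp*. At an unadjusted p of at most 0.05, 6 were higher (*Tnc*, *Spp1*, *Thbs1*, *Thbs4*, *Comp* and *Cilp*), against 5.84% of all genes, and DESeq2 called *Thbs1* (adjusted p = 0.0205) and *Cilp* (adjusted p = 0.00194), with 0.636% of all genes called. *Cilp* was the 1 gene of the 10 whose F3-KO TAC hearts were all above the WT TAC hearts, against 6.3% of all genes. For *Ctgf* the log2 fold change was -0.42 ± 0.50, with an interval from -1.51 to 0.67, and WT TAC replicate 1 set its direction, since without that heart the value was 0.49.

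These differences depended on F3-KO TAC replicate 2. Without it the median log2 fold change between F3-KO and WT TAC hearts was 0.81, 2 genes were higher at an unadjusted p of at most 0.05 (3.35% of all genes were), and the value of *Thbs4* was 0.39 ± 0.53 and that of *Comp* -0.032 ± 0.43. *Cilp* kept a log2 fold change of 2.23 ± 0.51 and *Thbs1* of 1.57 ± 0.55 (SE, edgeR adjusted p = 0.240 and 0.706). Without F3-KO TAC replicate 3 in its place, edgeR called *Cilp* (3.94 ± 0.49, adjusted p = 0.00761) and *Thbs1* (2.63 ± 0.22, adjusted p = 0.00151), with 0.718% of all genes called.

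Whether TAC acted differently in the 2 genotypes was tested with the interaction term. No gene of the 10 passed, with a lowest adjusted p of 0.954, 0% of all genes passed, and DESeq2 called 0 of the 10 (0.0313% of all genes with an adjusted p). None had an unadjusted p of at most 0.05, compared with 4.48% of all genes in either direction. The estimates were above 0 for 9 of the 10, with *Ctgf* the exception, and the intervals of all 10 included 0, for example 1.80 with bounds of -0.40 and 4.0 for *Cilp* and 1.80 with bounds of -1.15 and 4.76 for *Thbs4*.

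Hearts of a group also differed from each other. The median SD of log2 CPM within a group over the 10 genes was 0.36 for WT and 0.32 for F3-KO hearts after sham, and 0.88 for WT and 1.77 for F3-KO hearts after TAC, against 0.22, 0.16, 0.25 and 0.24 over all genes. In F3-KO TAC hearts all 10 had an SD above the median of all genes, from 0.63 for *Ctgf* to 2.70 for *Comp*. Relative to the mean of WT sham hearts, the average log2 value of the 10 genes was 2.14, 1.09 and 0.88 in WT hearts after TAC and 2.91, 4.42 and 1.28 in F3-KO hearts after it. It was 0.95, 1.11 and 0.55 in F3-KO sham hearts, so the lower WT TAC hearts and the higher F3-KO sham hearts were at the same level. F3-KO TAC replicate 2 exceeded all 6 sham hearts in 10 genes, replicate 1 in 8 and replicate 3 in 5, and the 3 WT TAC hearts did so in 7, 3 and 3.

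Markers of cell types were read beside these values, as sums of CPM scaled by the library total. The 8 fibroblast markers summed to 1524 to 3154 CPM in WT and 1967 to 2564 CPM in F3-KO hearts after sham, and to 2134 to 2697 and 2715 to 4130 CPM respectively after TAC. The 8 macrophage markers summed to 284 to 604, 391 to 477, 487 to 778 and 601 to 991 CPM in the same order. The 6 cardiomyocyte markers had their lowest sums in F3-KO TAC hearts, at 34188 to 42456 CPM, against 44929 to 61552 CPM in the other 9 hearts. Part of this lay in *Myh6*, at 15327 CPM in F3-KO TAC replicate 3 and 26573 CPM in WT TAC replicate 1. Without *Myh6* the sum of F3-KO TAC replicate 3 was above that of WT TAC replicate 1. In F3-KO mice, TAC hearts were thus above sham hearts for the fibroblast and macrophage sums and below them for the cardiomyocyte sum. The separation of the fibroblast sums rested on the collagen gene *Col1a1*. It was at 712 and 1667 CPM in F3-KO TAC replicates 1 and 2, against at most 186 CPM in F3-KO sham hearts. In F3-KO TAC replicate 3 it was within the F3-KO sham range. Without *Col1a1* the fibroblast sum of F3-KO TAC replicate 1 was below that of F3-KO sham replicate 2. In WT mice all 3 sums overlapped between operations, but only through WT sham replicate 2. The other WT sham hearts were below all WT TAC hearts for fibroblast (1524 and 1650 CPM) and macrophage markers (284 and 309 CPM). For cardiomyocyte markers they were above them (59756 and 59828 CPM against at most 59149 CPM). The sums did not follow the 10 genes heart by heart. F3-KO TAC replicate 3 had 2840 and replicate 1 had 2715 CPM of fibroblast markers, at means of 1.28 and 2.91 over the 10 genes. Single markers did not all follow their sum: in F3-KO TAC against sham hearts the log2 fold change was -0.45 for the fibroblast marker *Gsn* and -0.05 for the cardiomyocyte marker *Ryr2*. The part of these cell types in the results was not tested.

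Activated fibroblast markers, 6 in number, summed to 83.5 to 170 CPM in sham, 98.6 to 222 CPM in WT TAC and 84.3 to 453 CPM in F3-KO TAC hearts. Within the list *Cthrc1* was at 0 in 2 WT sham hearts and at 39.7 CPM in F3-KO TAC replicate 2, while *Acta2*, which smooth muscle also expresses, was at 37.2 to 164 CPM in F3-KO TAC and 51.7 to 149 CPM in sham hearts. Red blood cell markers summed to 495 to 1297 CPM in WT sham, 226 to 3283 CPM in WT TAC, 815 to 3340 CPM in F3-KO sham and 271 to 707 CPM in F3-KO TAC hearts. Those of F3-KO mice thus did not overlap and were lower after TAC, and the log2 fold change of *Hba-a1* was -2.26 ± 0.76 (SE, edgeR adjusted p = 0.189). The skeletal muscle list, which the heart shares in part, summed to 2005 to 2475 CPM in WT sham, 2827 to 5241 CPM in WT TAC, 3134 to 3409 CPM in F3-KO sham and 5031 to 6072 CPM in F3-KO TAC hearts. Of this list *Acta1* was at 46.8 to 154 CPM in WT sham and 743 to 3283 CPM in WT TAC hearts. In F3-KO hearts *Acta1* was at 188 to 755 CPM after sham and 2936 to 3889 CPM after TAC. Its averaged log2 fold change after TAC was 3.36 ± 0.48 (SE, edgeR adjusted p = 0.0248). *Ckm* had a log2 fold change of 0.11 in WT and -0.60 in F3-KO hearts. *Myh4* and *Myh2* were at most at 0.238 CPM in any heart. Endothelial (671 to 1379 CPM), smooth muscle and pericyte (551 to 1020 CPM) and epicardial markers (7.44 to 57.4 CPM) overlapped between all groups. Monocyte and neutrophil markers were at 7.58 to 43.0 CPM, T cell markers at 1.53 to 7.98 CPM and adipocyte markers at most at 0.989 CPM.

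**Figure D4:**
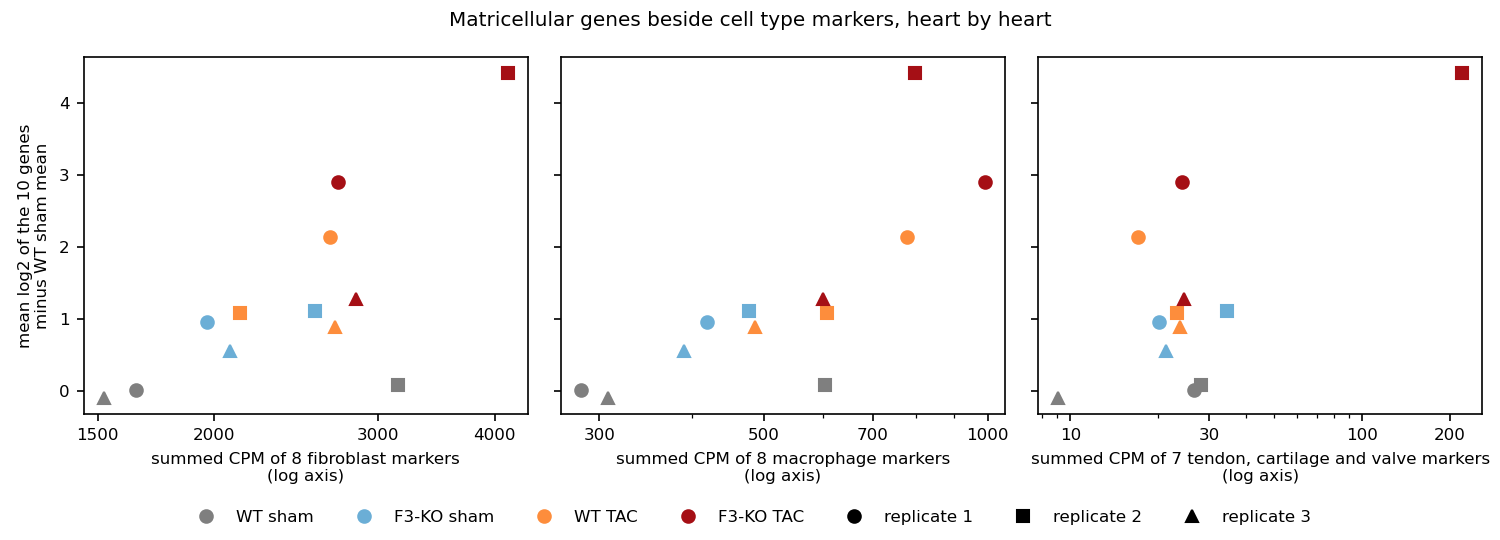
Mean log2 value of the 10 genes relative to WT sham (vertical axis) against the summed CPM of fibroblast, macrophage and tendon, cartilage and valve markers (logarithmic horizontal axes), 1 symbol per heart. WT sham replicate 2 has 3154 CPM of fibroblast markers at a mean of 0.08, and F3-KO TAC replicate 2 stands apart in the tendon, cartilage and valve markers at 220 CPM.

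Dividing each gene by the summed fibroblast markers, *Col1a1* among them, left differences of unequal size. On this scale *Cilp* was 1.59 log2 units above WT sham in WT TAC hearts (range 1.25 to 2.18) and 4.24 in F3-KO TAC hearts (range 2.48 to 5.65), beyond the highest WT sham heart at 0.65. F3-KO sham hearts were already at 1.40 (range 0.60 to 1.94), which overlapped WT TAC hearts and was below all F3-KO TAC hearts. *Postn* was 1.53 above WT sham in WT TAC hearts with a range of -0.18 to 3.87, and *Sparc* 0.37 with a range of -1.07 to 1.62, so both overlapped WT sham. After TAC *Thbs2* was at -0.09 in WT and at 0.14 in F3-KO hearts, and it overlapped WT sham in both.

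The genes varied together over the hearts, *Thbs2* apart. Over the 12 hearts, which share library and group, the 45 pairs of genes had a median Pearson correlation of log2 CPM of 0.77, and 18 pairs were above 0.8. Without F3-KO TAC replicate 2 the median was 0.60 and 10 pairs were above 0.8. The closest pair was *Postn* and *Sparc* (r = 0.96, Spearman 0.83) and the most distant *Tnc* and *Thbs2* (r = -0.06). No pair without *Thbs2* was below 0.42. Taking each heart as its deviation from the group mean gave a median of 0.62, but 0.19 once the F3-KO TAC group was left out.

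**Figure D5:**
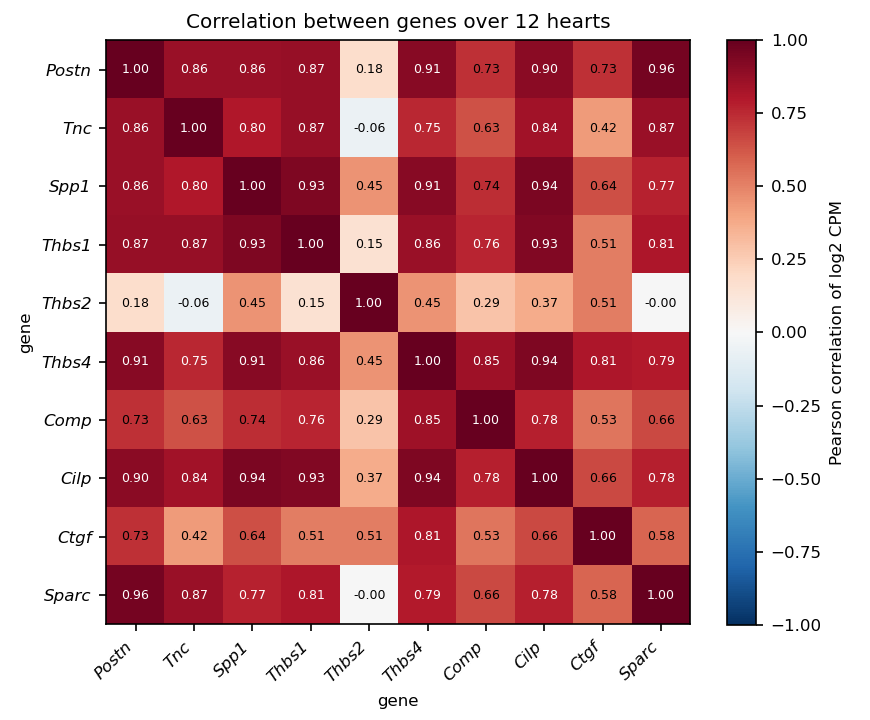
Pearson correlation of log2 CPM between each pair of the 10 genes over the 12 hearts, with the value in each cell. *Thbs2* has the palest row, and *Postn* and *Sparc* share the highest value, 0.96.

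Among all other genes tested, those whose log2 CPM over the 12 hearts was most like the mean of the 10, each scaled to the same mean and SD, were *Antxr1* (r = 0.99), *Mfap5*, *Col14a1*, *Ltbp2*, *Aspn*, *Col16a1*, *Loxl3*, *Srpx2*, *Col5a2* and *Col8a1* (r = 0.96). Without F3-KO TAC replicate 2, *Antxr1* was still first (r = 0.97), and 2 of the 10 genes stayed among the first 10. Gene by gene, *Postn* was most like *Mfap4*, *Col16a1* and *Col6a1* (r of 0.98 to 0.99), *Sparc* like *Col3a1*, *Igfbp7* and *Ppic*, *Thbs1* like *Vcan*, *Lhfpl2* and *Marcksl1*, and *Tnc* like *Nfkb1*, *Rcn1* and *Rnf24*. *Spp1* was most like *Ms4a7*, *App* and *Dse*. *Ltbp2* and *Antxr1* led for both *Thbs4* and *Cilp*, followed by *Fbln5* and *Rcan1* respectively. *Comp* was most like *Zdhhc2*, *Serpinb1a* and *Col8a2*, and *Ctgf* like *Brpf3*, *Qsox1* and *Bin3* (r of 0.93 to 0.94).

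Genes around the 10 in the pathway were taken from lists. Of 31 genes for collagens, their assembly and turnover, 30 were tested, 0 passed edgeR's test in the averaged comparison of TAC with sham, 25 were higher and 0 lower at an unadjusted p of at most 0.05 (11.3% and 6.52% of all genes), and their median log2 fold change was 1.40. *Lox*, which cross-links collagen, and *Timp1*, an inhibitor of matrix metalloproteinases, had log2 fold changes of 2.49 ± 0.55 and 2.20 ± 0.50 (SE, edgeR adjusted p = 0.101 and 0.104). Of 23 tested receptors, such as integrins, CD44 and CD47, 0 passed, 11 were higher and 0 lower at the unadjusted p, and the median was 0.29. The integrin subunit *Itgb3* had 1.11 ± 0.26 and the endocytic receptor *Lrp1* 0.62 ± 0.15 (SE, edgeR adjusted p = 0.104 for both).

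Of 36 tested genes for upstream signals (TGF-β, angiotensin, YAP, SRF and Runx among them), 0 passed, 11 were higher and 1 lower at the unadjusted p (11.3% and 6.52% of all genes), and the median log2 fold change was 0.12. *Ankrd1*, a mechanically induced gene of heart muscle and a YAP target, was at 1.54 ± 0.31 and the transcription factor *Runx1* at 0.97 ± 0.22 (SE, edgeR adjusted p = 0.0880 and 0.104). Of 22 tested relatives of the 10, 0 passed, 13 were higher and 1 lower, and the median was 0.50. *Wisp2*, a relative of *Ctgf*, was at 0.99 ± 0.24 and *Pcsk5*, a proprotein convertase, at 0.68 ± 0.18 (SE, edgeR adjusted p = 0.104 and 0.106).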

How the data were processed

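The authors deposited estimated counts per gene for 12 hearts, not normalized, in a joint table listed by NCBI gene symbol. Per their methods, Trizol-extracted RNA went to BGI for sequencing, reads were cleaned with SOAPnuke and mapped with HISAT2 (2.0.4) and STAR (2.3.0), and differential expression was tested with DESeq2. The submitters' processing notes name mm8 and mm9, and the counting tool, annotation and strand setting are not given in the sources used here. A counter that divides reads between overlapping or similar genes could move counts among them. Of all values, 40.6% were not whole, and all were rounded before testing, although the tests had been planned for whole counts.

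After filterByExpr (minimum count 10) and TMM normalization (factors 0.931 to 1.09), the 4 groups were tested in 1 quasi-likelihood fit of edgeR 4.0.16 in R 4.3.3, with a threshold of 0.05 on Benjamini-Hochberg adjusted p over 14094 genes. CPM values are TMM-scaled except floors, marker sums and single cell type markers, which are scaled by library total, and log2 CPM used a prior count of 2. On data simulated for the averaged comparison (14056 genes), edgeR recovered 96 of 100 genes changed 2-fold, 100 of 100 changed 4-fold and called 6 unchanged genes, and DESeq2 1.42.0 recovered 95 and 100 and called 17. Every simulated gene had the same spread between hearts (biological coefficient of variation 0.232). The 10 genes varied more in TAC hearts (median SD of log2 CPM 0.88 in WT and 1.77 in F3-KO, against 0.25 and 0.24 over all genes). These recoveries therefore do not apply to them. Replicate numbers were not used to pair the hearts in this fit. The 10 genes and all lists were chosen with earlier results of these data known. Named from the lists were genes passing the test, or otherwise the 2 with the lowest p in the averaged comparison, and, as most alike, the 10 genes closest to the mean of the members and the 3 closest to each (those of *Thbs2* are not reported here). Alternatives were DESeq2, its size factors in edgeR, no filter, at least 10 counts in every library, an added log2 fold change of 1, the replicate block, only the 6 libraries compared, library-total scaling, Spearman correlation, and leaving out each heart. The counts at an unadjusted p and the correlations without a heart or within groups were varied after the data were seen. Promoter windows are from RefSeq (GRCm38.p6), where 7 of the 10 genes had an entry, and *Thbs1*, *Comp* and *Ctgf* were not matched.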

Additional observations from a re-analysis of the deposited data

How the results depend on the processing

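With 3 hearts per group and *Spp1* and *Tnc* at few counts in sham hearts, the calls were unstable. Of the 10 genes, none was called by edgeR in any comparison. DESeq2 called 5 in F3-KO TAC against sham, 7 in the averaged comparison and 2 in F3-KO against WT TAC hearts. With no filter, and with at least 10 counts in every library (7 of the 10 genes left), edgeR called 1 (*Cilp*) in the averaged comparison. With only the 6 sham libraries (9 of the 10 genes left) it called 1 (*Postn*). Leaving out each heart gave 0 to 8 for F3-KO TAC against sham, 0 to 8 for the averaged comparison and 0 to 2 for F3-KO against WT TAC, the highest counts being without F3-KO TAC replicate 3. In the averaged comparison 1 was called without WT TAC replicate 2 and 1 without F3-KO TAC replicate 2.

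Over all genes, 0 in WT TAC against sham became 26 with DESeq2, 1 with no filter, 1 with at least 10 counts in every library and 1 with the replicate block (leaving out each heart, 0 to 1). 0 in F3-KO TAC against sham became 446, 7 and 6 under the first 3 settings and 1 with only 6 libraries (0 to 778). 11 in the averaged comparison became 619, 23 and 36 (0 to 849). 11 in F3-KO against WT TAC became 96 with DESeq2, 17 with no filter and 0 with only 6 libraries (6 to 103). 15 in F3-KO against WT sham became 102 with DESeq2, 56 with only 6 libraries and 8 with the replicate block (2 to 7). 0 in the interaction became 6 with DESeq2 (0 to 4).

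At an unadjusted p of at most 0.05, leaving out each heart gave 1 to 5 higher members in WT TAC against sham (1.88% to 5.25% of all genes were higher), 7 to 9 in F3-KO TAC against sham (6.19% to 14.5%), 8 to 10 in the averaged comparison (7.7% to 14.3%), 2 to 8 in F3-KO against WT TAC (3.35% to 10.4%), 0 to 1 in F3-KO against WT sham (1.94% to 3.13%) and 0 to 2 in the interaction (1.5% to 4.9%). In the interaction 1 member was lower without WT TAC replicate 2, and 1 (*Comp*, at -1.37) without F3-KO TAC replicate 2. DESeq2 gave 7 in WT TAC against sham (3.08%) and 2 in F3-KO against WT sham (2.3%), where the replicate block gave 0 (2.87%). Deviations of same-numbered hearts were weakly correlated in most pairs (-0.14 to 0.36, median 0.037, above 0.1 in 4 of 18 pairs), and 6 of 12 hearts were closest to one of their own number. No pairing was assumed, and whether same-numbered hearts shared a batch was not tested. The block called none of the 10.

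Single log2 fold changes kept their direction except in 8 cases, all from leaving out 1 heart. In F3-KO TAC against sham, *Comp* ranged from -0.41 to 3.40. In F3-KO against WT TAC, *Comp* ranged from -0.032 to 3.78 and *Ctgf* from -0.89 to 0.49. The interaction ranged from -0.45 to 2.77 for *Postn*, from -0.42 to 2.59 for *Thbs4*, from -1.37 to 2.42 for *Comp*, from -1.27 to 0.10 for *Ctgf* and from -0.031 to 1.31 for *Sparc*. The values of opposite sign came without WT TAC replicate 1 for *Ctgf* and without F3-KO TAC replicate 2 for the others, and the cause was not tested. Of the 10 genes most like the members, 2 were shared with the list by Spearman correlation.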
